A study of Homo sapiens with 16 samples.

Results

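Caco-2 cells, a line of human colorectal adenocarcinoma cells that keeps features of absorptive intestinal epithelium, were compared between 2 sets of arrays: the 8 arrays whose titles end in replicate 1 or 2 and the 8 arrays whose titles end in replicate 3 or 4. All 16 arrays of the series entered the comparison. The study made 4 independent experiments, with cells 1 to 2 passages apart. Each replicate number was taken to stand for 1 of them, although the titles give the number only. Each number had 1 array of undifferentiated cells kept in medium (MED-CTL) and 1 of cells exposed to the synthetic gliadin peptide p31-43 at 150 µg/ml. It also had 1 of cells given a blank digest of pepsin and trypsin without substrate (PT) and 1 of cells given gliadin cut by both enzymes (PT-G). All exposures lasted 6 h in medium with low serum. The 4 agents were therefore balanced between the sets, with 2 arrays of each agent in each set, and the agent was held as a covariate. The labels do not call the sets early and late cultures, so they are named by their replicate numbers, or as the earlier and the later set by the order of their scans.

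The question was which gene functions differed between the sets. Passage, confluence and serum lot are known to shift Caco-2 cells along a path from growing crypt-like cells to cells with a brush border, nutrient carriers, tight junctions and secreted plasma proteins, some of which are otherwise made by the liver. Array batches are known to shift signals too, since labelling yield, hybridisation stringency, washing and scanning act on all probes of a slide together.

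Each set lay on its own slides. The arrays of replicates 1 and 2 were on 2 slides scanned on 1 day, and those of replicates 3 and 4 were on 3 slides scanned on 2 later days, so the culture, the slide and the scan cannot be told apart between the sets. The 10 Agilent spike-in probes, which report transcripts added to the RNA in fixed amounts, were all brighter in replicates 3 and 4, by 0.04 to 1.13 on the log2 scale. The median spike-in signal of an array ranged from 337 to 698 in replicates 1 and 2 and from 333 to 2402 in replicates 3 and 4, so the sets overlapped, with MED-CTL replicate 3 the dimmest and PT replicate 3 the brightest of the later set. The number of spots well above background ranged from 29573 to 31083 and from 27660 to 33947. Their part in the differences below was not tested. The label of the line was checked against markers: 13 of the 14 intestinal epithelial markers were well above background on at least 8 arrays, among them EPCAM, a surface glycoprotein of epithelial cells, with a median log2 intensity of 16.40 in either set. PECAM1, an endothelial adhesion molecule, was also above background, with medians of 8.31 and 8.84. Of the 7 endothelial markers, 4 were well above background on at least 8 arrays, and CDH5 and TEK were so on none. The same held for 8 of 10 fibroblast and 5 of 8 leukocyte markers, and for 2 of 6 neural and 2 of 7 squamous markers. Signal above background alone thus did not tell these cell types apart.

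Some arrays did not group by their number. When each array was set against the other arrays of its set, after the mean of its agent and of its set had been removed, MED-CTL replicate 1 had a mean correlation across probes of -0.41 with the arrays of its own number and 0.29 with those of replicate 2, and MED-CTL replicate 2 had -0.46 and 0.14. These arrays lay on the slide that held the other number. PT replicate 3 had -0.41 with replicate 3 and 0.35 with replicate 4. It shared a slide, scanned last, with p31-43 replicate 4. PT-G replicate 1 had -0.20 and -0.07. Each array was set against its own set alone, so likeness to the other set was not tested. Whether the number marks the experiment for the arrays unlike their own number was not tested either. The same 2 MED-CTL arrays had the largest spread between repeated spots, with median coefficients of variation of 5.96% and 6.37% beside 2.46% to 4.22% on the other 14 arrays.

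**Figure D1:**
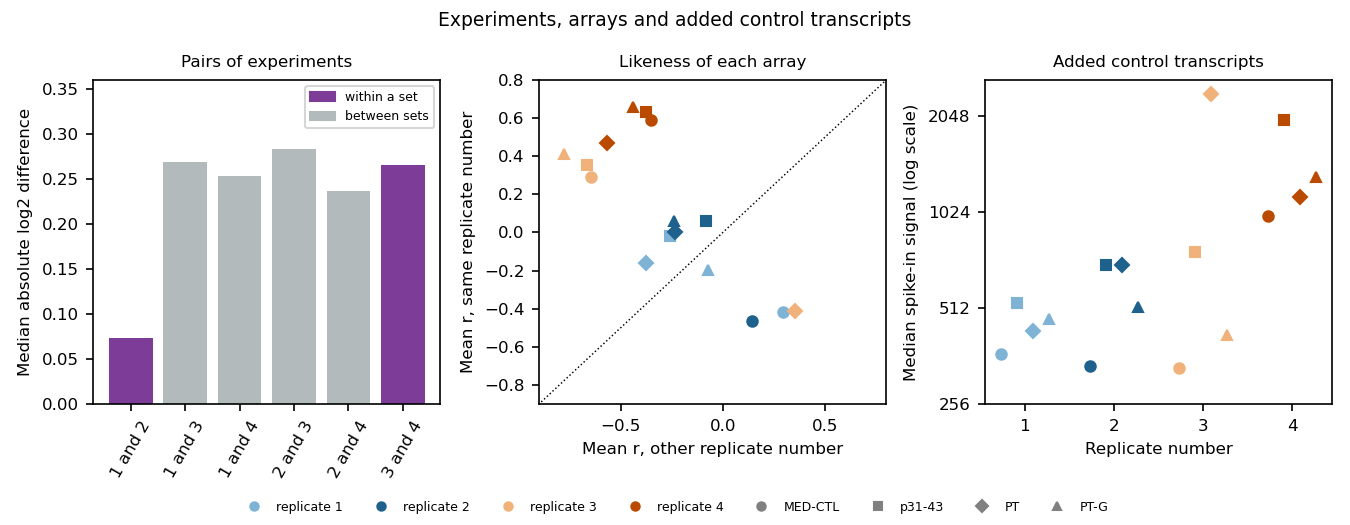
Left, the median absolute log2 difference between the means of 2 experiments over 28629 probes, for the 2 pairs within a set and the 4 pairs between sets. Middle, the mean correlation of each array with arrays of its own number (vertical) and of the other number of its set (horizontal); MED-CTL replicates 1 and 2 and PT replicate 3 lie far below the dotted line of equality, and PT-G replicate 1 nearer to it. Right, the median spike-in signal of each array on a log scale, from 333 to 2402.

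Experiments 1 and 2 were close to each other, and experiments 3 and 4 were not. Over the 28629 probes that were well above background on at least 8 arrays, the means of experiments 1 and 2 differed by a median of 0.07 on the log2 scale, and those of experiments 3 and 4 by 0.27. The 4 pairs between the sets differed by 0.24 to 0.28. The distance between the sets was thus of the same size as the distance between the 2 experiments of the later set.

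Of 40975 probes tested, 6305 (15.4%) were called, meaning an adjusted p under 0.05 by limma with the experiment as a random block. The signal was higher in replicates 3 and 4 for 3159 probes (7.71%) and lower for 3146 (7.68%), which carried 1900 and 2227 named genes. The median absolute log2 difference was 0.52 over the called probes and 0.14 over all probes. Differences above 2-fold were found for 196 of the higher and 145 of the lower probes. The 8 arrays of either set did not overlap for 1360 probes that were higher (3.32%) and 1219 that were lower (2.97%). Signal in bulk RNA does not tell fewer cells of a kind from less RNA per cell.

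These counts rested on how the experiments were counted. With the means of the 4 experiments, 2 against 2, limma called 0 probes (0%) and 8085 had an unadjusted p under 0.05. With the 2 MED-CTL arrays of the earlier set moved to the experiment of the other arrays on their slide, 4569 probes were called. With the slide as the random block in place of the experiment, 3225 probes were called, and without PT replicate 3 the number was 4054. Without experiment 1 or 2 it was 609 or 610, and without experiment 3 or 4 it was 19021 or 19791. In each of these fits 1 set held 1 experiment. The consensus correlation within experiments was 0.288 or 0.270 in the former and -0.127 or -0.162 in the latter. A lower correlation gives smaller p-values for the set difference. The number of calls was 1624 without MED-CTL replicates 1 and 2 and PT replicate 3, an alternative chosen after seeing the data. The balance of higher and lower calls was 50.1% higher in the deposited values and 61.0% higher when the processed signals were scaled to their 75th percentile, where 3971 probes were called. An exact permutation over 4 experiments cannot give a p under 0.333.

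The called probes differed in the same direction in both experiments of the later set: 3159 of 3159 higher probes and 3146 of 3146 lower probes had experiments 3 and 4 on the same side of the mean of experiments 1 and 2. For the higher probes the median shift was 0.57 in experiment 3 and 0.46 in experiment 4, and for the lower probes it was -0.49 and -0.51. Such a direction is in part fixed by the choice of called probes. The set difference had the same sign in all 4 agents for 6280 of the 6287 called probes that were measured in each of them. This agreement is also in part fixed, since the probes were called on the difference over the 4 agents together.

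Many genes have more than 1 probe, and the probes of a gene often differed. Of 2154 genes with at least 2 probes well above background and at least 1 called, 486 had 2 or more probes called in the same direction, 1590 had 1 called and the others not, and 78 had probes called in both directions. A difference is therefore given below for its probe, and other probes of a named gene are given where they reached the other sign.

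The genes with the largest increases included a drug efflux pump, a growth factor receptor and an amino acid carrier. ABCB1 encodes P-glycoprotein, the efflux pump of the apical membrane. Its log2 intensity had a lowest, median and highest value of 8.37, 8.60 and 8.83 in replicates 1 and 2 and of 9.66, 10.06 and 10.27 in replicates 3 and 4. The sets were apart by 0.83, and the log2 difference was 1.45 ± 0.13 (SE, adjusted p = 4.3e-05). The means of the 4 experiments were 8.56, 8.64, 10.11 and 9.99, so both later experiments stood at one level. SLC38A4, a carrier of neutral and cationic amino acids, ranged from 8.37 through 8.86 to 9.13 and from 9.89 through 10.25 to 10.46. It was higher by 1.38 ± 0.13 (SE, adjusted p = 5.92e-05), and its other probe by 0.68. FGFR1, a receptor for fibroblast growth factors, ranged from 9.59 through 9.80 to 10.05 and from 10.70 through 11.14 to 11.62. The difference of 1.37 ± 0.12 (SE, adjusted p = 5.57e-05) was that of 1 of 6 probes, and the lowest of the others was -0.25.

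LGI2, a secreted leucine-rich repeat protein, rose by 1.56 (adjusted p = 0.00304). Its values followed the slides within the earlier set: MED-CTL replicate 2 had 7.74, beside 7.80 to 7.98 for the other arrays of its slide, and MED-CTL replicate 1 had 8.99, beside 8.86 to 8.96. PAGE4, a cancer and testis antigen, was higher by 1.42 (adjusted p = 0.0016), and PAMR1, a secreted peptidase-domain protein, by 1.33 (adjusted p = 0.00028). NCOA3, a coactivator of nuclear receptors, was called for all 3 of its probes, with differences of 0.66 to 1.30. POFUT1, which adds O-fucose to NOTCH receptors, was higher by 1.43 (adjusted p = 0.000372) in one probe and differed by -0.18 in the other. WWC2, a scaffold of the Hippo pathway, was higher by 1.33 (adjusted p = 0.00409), and within the earlier set both p31-43 arrays were low, at 7.32 and 6.85, beside 8.53 or more elsewhere.

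Among these 12 increases, the largest difference was that of a probe assigned to ANXA2, a calcium-dependent membrane-binding protein. It rose from a median of 9.30 (8.66 to 9.71) to a median of 11.04 (10.23 to 12.24), by 2.04 ± 0.32 (SE, adjusted p = 0.00117). The other probes of ANXA2 went as low as -0.07, and ANXA2 and the ribosomal protein gene RPS26 have near-identical processed copies in the genome, so the source of their signal is uncertain. Another RPS26 probe was at -0.08. The RPS26 probe named here was higher by 1.34 (adjusted p = 0.00544), with 12.12 and 12.56 in the 2 MED-CTL arrays of the earlier set and 13.75 to 14.05 in its other 6 arrays. SELENOI, an enzyme of phosphatidylethanolamine synthesis, was higher by 1.36 (adjusted p = 0.000577) and had its lowest values in the same 2 MED-CTL arrays, at 11.24 and 11.05.

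Among the genes with the largest decreases, complement component C3, the central protein of the complement cascade, was the most sharply separated. Its lowest, median and highest values were 11.51, 11.75 and 11.89 in replicates 1 and 2 and 9.92, 10.31 and 10.55 in replicates 3 and 4. The sets were apart by 0.96, and the difference was -1.44 ± 0.11 (SE, adjusted p = 2.68e-05). The experiment means of C3 were 11.66, 11.78, 10.27 and 10.29. PLEKHA2, an adaptor that binds phosphoinositides, fell by 1.39 (adjusted p = 8.66e-05), and ANKLE1, an endonuclease, fell by 1.44 (adjusted p = 0.000603).

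The other 9 genes of this group were lower by 1.33 to 1.64. SKI, a repressor of TGF-beta signalling, had values from 8.74 to 9.22 and from 6.35 to 8.10, a difference of -1.64 ± 0.22 (SE, adjusted p = 0.000418). ITSN1, an endocytic scaffold, fell by 1.63 (adjusted p = 0.00423), CCSAP, a centriole and spindle protein, by 1.59 (adjusted p = 0.000282) and AHCTF1, a nucleoporin that binds chromatin, by 1.57 (adjusted p = 0.000393). ZBED1, a zinc finger factor, fell by 1.39 (adjusted p = 0.000337) and SUPT16H, a subunit of the FACT histone chaperone, by 1.37 (adjusted p = 0.00755). LARP4, an mRNA-binding protein, fell by 1.53 (adjusted p = 0.0175), CDK11B, a kinase linked to splicing, by 1.5 (adjusted p = 0.0443) and JMJD1C, a histone demethylase family member, by 1.33 (adjusted p = 0.0492).

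These decreases were uneven within the later set. MED-CTL replicate 3, the array with the lowest median foreground (153, beside 198 to 410 on the other arrays of its set), was the lowest of the 8 arrays for 10 of the 12 genes. JMJD1C had 6.17 there and 8.47 to 9.02 on the arrays of replicate 4. The calls of CDK11B and JMJD1C were lost with the slide as the block (adjusted p = 0.0871 and 0.102). Other probes of the same genes reached 0.04 for ITSN1, 0.03 for CCSAP, 0.09 for ZBED1, 0.32 for AHCTF1, 0.22 for LARP4 and 0.57 for JMJD1C, so within 1 gene the probes went apart. For JMJD1C, 1 other probe was called higher.

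**Figure D2:**
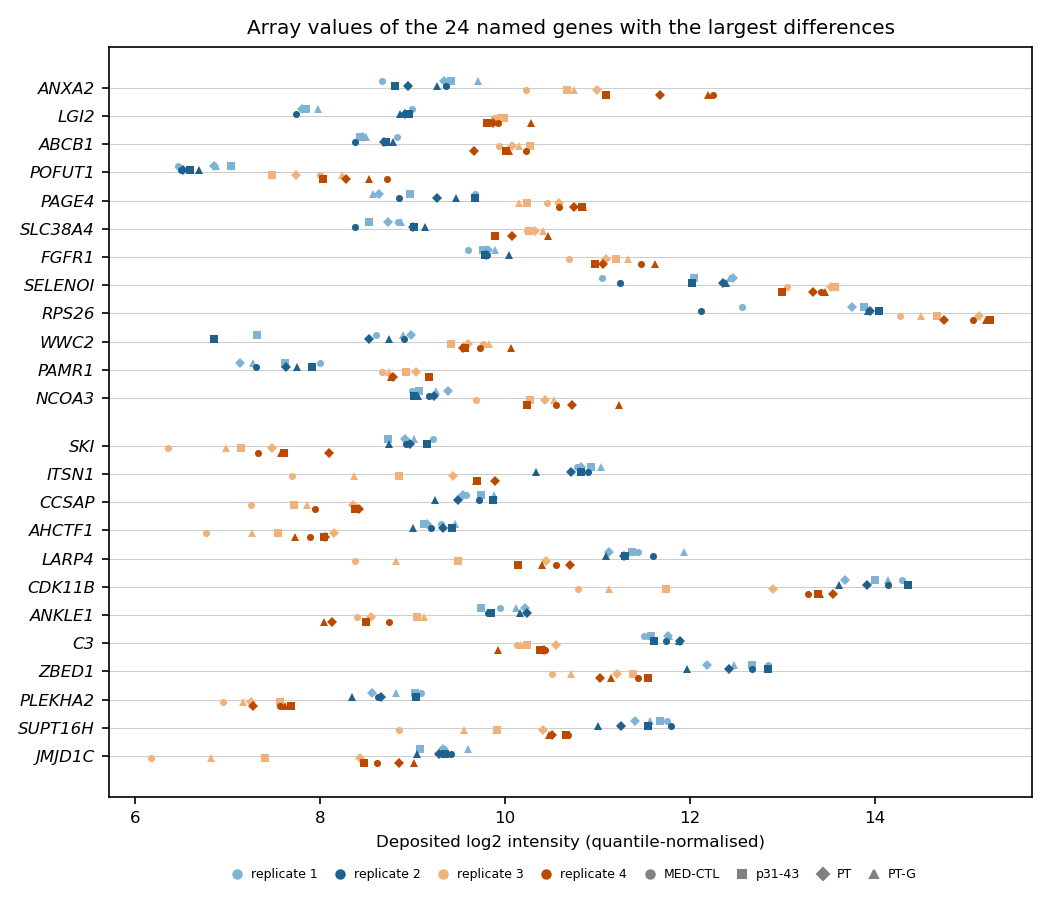
Deposited log2 intensity of each of the 16 arrays (horizontal) for the 12 genes with the largest increases and the 12 with the largest decreases among called probes whose sets did not overlap; colours mark the replicate number and symbols the agent. The sets lie apart for each gene by construction, ABCB1 and C3 are tight within each set, and JMJD1C spreads from 6.17 to 9.02 within replicates 3 and 4.

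Probes below the detection limit in one set add 4 more genes, given as bounds: the mean of the bright set over the dim set's own signal or, where higher, over the dimmest signal that still counted as above background there. CD46, a complement regulator, was at least 1.77-fold higher in replicates 3 and 4 (measured difference 0.85, adjusted p = 0.000796), and all 3 of its probes differed by 0.85 to 1.02. ADAMTS10, a secreted metalloproteinase, was at least 1.60-fold higher (adjusted p = 0.00576) and HLA-DOB, which modulates class II antigen loading, at least 1.53-fold higher (adjusted p = 0.00157), with its other probe at -0.07. SPOCD1, a nuclear protein, was at least 1.40-fold lower (adjusted p = 0.00195).

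Gene functions were then described with 35 lists, each gene by its brightest probe. Over all 17516 named genes measured this way, 8.41% were called higher and 9.17% lower, and the shares of each list are read beside these values. This background includes dim genes, which were rarely called. Among named probes well above background on at least 8 arrays, the shares in bins of gene length were 4.9% to 15.3% higher and 8.02% to 16.2% lower.

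The list of enterocyte nutrient transport, which also holds the efflux pumps ABCB1 and ABCG2, had the highest share of increases of the 35 lists. Of 22 measured genes of enterocyte nutrient transport, 6 rose (27.3%) and 0 fell, and the median difference was 0.09 beside -0.00417 over all named genes. Besides ABCB1 these were SLC1A1, the neuronal and epithelial glutamate carrier (0.71, adjusted p = 0.000316), SLC11A2, the divalent metal carrier of iron uptake (0.80, adjusted p = 0.00141), and, named after their values were seen, the glucose carrier SLC2A2 (0.58), the efflux pump ABCG2 (0.52) and the neutral amino acid carrier SLC6A19 (0.69). SLC11A2 had values from 10.75 to 11.14 in the earlier set and from 11.23 to 12.24 in the later one, and its other probes went down to -0.13. The other probe of SLC1A1 was at -0.09. With the slide as the block, 3 members of the list were called.

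Iron handling overlapped with that list. Of 18 genes, 4 rose (22.2%) and 0 fell: SLC40A1, the iron exporter ferroportin (0.63, adjusted p = 0.000907), SLC11A2, the plasma iron carrier transferrin TF (0.65, adjusted p = 0.00526) and, named after its value was seen, the iron-responsive regulator IREB2 (0.52). Of the 16 metallothionein and zinc genes, SLC30A2, a zinc exporter (0.60, adjusted p = 0.0013), and MT1A, a metal-binding metallothionein (0.67, adjusted p = 0.00576), rose and 0 fell.

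The list of plasma proteins that Caco-2 shares with liver had the highest median of all lists, 0.30. Of 24 genes, 5 rose (20.8%) and C3 alone fell. Coagulation factor F5 went from 6.50 to 6.74 in the earlier set to 6.91 to 7.21 in the later one (0.38, adjusted p = 0.00288). TF rose by 0.65, with another TF probe at -0.06. A1CF, the partner of the APOB mRNA editing enzyme, is in the list though it is not a plasma protein, and rose by 0.55 (adjusted p = 0.00336). The median was 0.19 to 0.39 in the 4 agents taken alone. Among 27 genes of apolipoproteins and lipid absorption, 3 rose (11.1%, near the background) and 1 fell. Those that rose were APOB, the structural protein of chylomicrons (0.99, adjusted p = 0.0011), MTTP, which loads lipid on it (0.64, adjusted p = 0.00906), and PLIN2, a lipid droplet coat protein (0.33, adjusted p = 0.0257, and 0.0694 with the slide as the block). APOB had 10.73 to 11.65 in the earlier set and 11.998 to 12.41 in the later one, with no overlap.

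Fatty acid synthesis held more increases than the background, and cholesterol genes were near it. Of 20 genes of fatty acid synthesis, 5 rose (25%) and 2 fell: FADS2, a desaturase (0.77, adjusted p = 0.00012), ACSL3, an acyl-CoA synthetase (0.92, adjusted p = 0.000854, with both probes at 0.91 or above), and GPAM, the first enzyme of glycerolipid synthesis (0.63, adjusted p = 0.0032), led the increases. The other FADS2 probe was at -0.13. Of 27 cholesterol genes, 3 rose (11.1%, near the background) and 1 fell, with 14 positive and 13 negative differences. INSIG1, which retains the sterol sensor in the endoplasmic reticulum (0.35, adjusted p = 0.0118), and FDFT1, squalene synthase (0.22, adjusted p = 0.0362), were among those that rose, and 0 cholesterol genes were called with the slide as the block. Of 39 genes of glycolysis and hypoxia, 7 rose (17.9%) and 1 fell, with PGAM1, phosphoglycerate mutase (0.61, adjusted p = 0.000593), EGLN3, an oxygen-sensing hydroxylase (0.55, adjusted p = 0.0143), and PFKM, phosphofructokinase (0.29, adjusted p = 0.016), foremost. With the slide as the block 1 of them was called. Of 21 glucocorticoid targets 3 rose and 1 fell, and SLC19A3, a thiamine carrier, rose by 0.82 (adjusted p = 0.000909), ANGPTL4, a lipase inhibitor, by 0.29 (adjusted p = 0.0166) and SGK1, a kinase of ion transport, by 0.33 (adjusted p = 0.0338). The calls of ANGPTL4 (adjusted p = 0.069) and SGK1 (adjusted p = 0.121) were lost with the slide as the block.

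The brush border and the junctions split. Of 26 brush border and digestion genes, 5 fell (19.2%) and 4 rose (15.4%). Those that fell included USH1C, harmonin (-0.92, adjusted p = 5.92e-05, with its other probe at -0.04), MYO1A, brush border myosin (-0.56, adjusted p = 0.00389), and EPS8, an actin-capping protein (-0.86, adjusted p = 0.0217, and 0.0733 with the slide as the block). Villin VIL1, which bundles actin in microvilli, differed by -0.03 (adjusted p = 0.884). PDZK1, a scaffold of apical carriers, rose by 0.68 (adjusted p = 0.000503) and the disaccharidase SI by 0.67 (adjusted p = 0.0315), both named after their values were seen. Of 32 junction genes, 5 fell (15.6%) and 4 rose (12.5%). The claudins CLDN15 (-0.54, adjusted p = 0.0236) and CLDN2 (-0.38, adjusted p = 0.0246) were among those that fell, whereas occludin OCLN (0.97, adjusted p = 0.000549) and claudin CLDN1 (0.79, adjusted p = 0.00556) rose, the latter pair named after their values were seen. The calls of CLDN15 (adjusted p = 0.157) and CLDN2 (adjusted p = 0.0653) were lost with the slide as the block. Of 22 mucin and goblet cell genes, 4 fell (18.2%) and 0 rose: MUC13 and MUC17, membrane mucins (-0.84, adjusted p = 0.00653, and -0.30, adjusted p = 0.0111), MUC4 (-0.20, adjusted p = 0.0458, with the probe well above background on 4 of 8 and 1 of 8 arrays) and, outside the naming rule, the lectin REG4. Another MUC17 probe was at 0.06. With the slide as the block 1 was called.

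Inflammatory genes held more decreases than the background. The share of interferon genes that fell was within the range given above for probes well above background. Of 30 genes of inflammation and NF-kB, 7 fell (23.3%) and 1 rose. C3 belongs here too. DUOXA2, the maturation factor of an epithelial oxidase, went from 7.58 to 7.89 in the earlier set to 6.84 to 7.35 in the later one (-0.62, adjusted p = 0.000709), and the neutrophil attractant CXCL1 fell by 1.11 (adjusted p = 0.000709). CXCL1 overlapped between the sets, with 9.32 to 11.06 and 8.22 to 10.22, since it also differed between the agents within each set. Another chemokine, CXCL5, named after its value was seen, rose by 0.69 (adjusted p = 0.00304). With the slide as the block 6 members were called. Of 48 interferon response genes, 7 fell (14.6%) and 1 rose: IRF1, a transcription factor (-0.68, adjusted p = 0.00213), OAS1, an antiviral enzyme (-0.64, adjusted p = 0.00246), and HLA-B, a class I antigen-presenting molecule (-0.48, adjusted p = 0.00268), led. Probes of class I genes can share signal among family members.

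Stress and growth-factor lists were mixed. Of 24 p53 targets, 5 fell (20.8%) and 3 rose (12.5%), with PHLDA3, an AKT inhibitor (-0.62, adjusted p = 0.00198), CDKN1A, the inhibitor of cyclin-dependent kinases p21 (-0.60, adjusted p = 0.00571), and SESN2, a stress-induced regulator of mTORC1 (-0.62, adjusted p = 0.00628), among those that fell. Of 41 immediate early and MAPK feedback genes, 4 fell (9.76%, near the background) and 2 rose, and the list median was -0.16. The receptor EPHA2 (-1.29, adjusted p = 0.00119) and the transcription factors KLF2 (-0.83, adjusted p = 0.000895) and ETV4 (-0.68, adjusted p = 0.00213) fell. Of 36 matrix and adhesion genes, 4 fell (11.1%, near the background) and 2 rose: the urokinase receptor PLAUR fell by 1.03 (adjusted p = 0.000123) and the integrins ITGA3 and ITGB4 by 0.57 (adjusted p = 0.000662) and 0.63 (adjusted p = 0.00133). Of 31 cytoskeletal and SRF targets, 5 fell and 2 rose, CNN2, a calponin (-0.67, adjusted p = 0.0179), TAGLN2, a transgelin (-0.51, adjusted p = 0.0213), and MYL9, a myosin light chain (-0.54, adjusted p = 0.0253), foremost, and 0 of the list were called with the slide as the block. The other TAGLN2 probe was at 0.06.

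Ribosome biogenesis held more decreases than the background. Of 46 ribosome biogenesis genes, 11 fell (23.9%) and 2 rose, and 31 of the 46 had a negative difference. GRWD1, a nucleolar chaperone, had 13.50 to 13.72 in the earlier set and 13.05 to 13.40 in the later one (-0.40, adjusted p = 0.000786, with both probes alike). NOP14 (-0.74, adjusted p = 0.00188) and PES1 (-0.74, adjusted p = 0.0085, and 0.0704 with the slide as the block), factors of small and large subunit assembly, fell as well. With the slide as the block 5 members were called. Of 51 splicing factors, 7 fell (13.7%) and 3 rose, with SF3B2 (-0.54, adjusted p = 0.00263), U2AF2 (-0.51, adjusted p = 0.0108) and SF3A3 (-0.31, adjusted p = 0.014), factors of branch point and 3' splice site recognition, foremost. There were 2 splicing factors called with the slide as the block, and U2AF2 (adjusted p = 0.0659) and SF3A3 (adjusted p = 0.0737) were lost. The S-phase regulator E2F1 (-0.38, adjusted p = 0.000348), the polymerase subunit POLA2 (-0.64, adjusted p = 0.000988) and the ligase LIG1 (-0.40, adjusted p = 0.00412) were among 5 of 43 DNA replication genes that fell (11.6%), beside 1 that rose, while 23 of the 43 had a positive difference and the list median was 0.01. In mitosis, 4 of 34 genes fell and 3 rose. The phosphatase CDC25B (-0.82, adjusted p = 0.000795), the checkpoint target CDC20 (-0.74, adjusted p = 0.00336) and the kinase AURKB (-0.50, adjusted p = 0.00595) fell, whereas the kinases CDK1 (0.39, adjusted p = 0.000451) and TTK (0.60, adjusted p = 0.00163), named after their values were seen, rose.

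Lists of housekeeping complexes stayed near or below the background. Of 75 cytosolic ribosomal proteins, 7 fell (9.33%) and 1 rose, with RPL22 (-0.50, adjusted p = 0.0018), RPL23 (-0.35, adjusted p = 0.00339) and RPL26 (-0.25, adjusted p = 0.00937) first, but other probes reached 2.14 for RPL22 and 0.27 for RPL23, and this family has many processed copies. For RPL22, 1 other probe was called higher. Of 77 mitochondrial ribosomal proteins 4 fell and 0 rose, of 74 respiratory chain genes 7 fell and 2 rose, of 38 proteasome subunits 3 fell and 1 rose, and of 27 replication-dependent histones 1 fell, the linker histone H1-3 (-0.92, adjusted p = 0.0128). The complex II subunits, SDHA (-0.56, adjusted p = 0.00474) and SDHC (-0.67, adjusted p = 0.00658), and UQCRC1 of complex III (-0.38, adjusted p = 0.00427) led the respiratory chain, where 2 genes were called with the slide as the block. SDHC lost its call there (adjusted p = 0.0654). The nuclear long noncoding RNAs and snoRNA hosts had the lowest median, -0.32, with 0 of 11 called.

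The remaining lists had calls in both directions. Among 39 xenobiotic metabolism genes, 4 rose and 3 fell: the mono-oxygenase CYP1A2 (1.12, adjusted p = 0.0118), the glutathione transferase family enzyme MGST1 (0.40, adjusted p = 0.00236) and the acetyltransferase NAT1 (0.29, adjusted p = 0.015) rose. CYP1A2 had another probe at -0.08, and NAT1 lost its call with the slide as the block (adjusted p = 0.0935). Of 27 NRF2 targets, 3 rose and 3 fell, with the carbonyl reductase CBR1 (0.69, adjusted p = 0.00151) and the cystine carrier SLC7A11 (0.90, adjusted p = 0.00723) on one side and OSGIN1, an oxidative stress response protein (-0.69, adjusted p = 0.00444), on the other. Another SLC7A11 probe was at -0.02. Among 41 genes of the amino acid and unfolded protein responses 5 rose and 4 fell, among 20 aminoacyl-tRNA synthetases 3 rose (15%) and 1 fell, among 22 clock genes 3 rose and 3 fell (13.6% each, with 1 called with the slide as the block), among 28 heat shock genes 2 rose and 2 fell, and among 22 stem cell and WNT targets 2 rose and 2 fell. In the last list the surface markers TNFRSF19 (0.82, adjusted p = 0.000261) and PROM1 (0.78, adjusted p = 0.000511) rose, and TCF7, a WNT effector (-0.47, adjusted p = 0.000806), and CD44, a hyaluronan receptor (-0.52, adjusted p = 0.00154), fell.

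**Figure D3:**
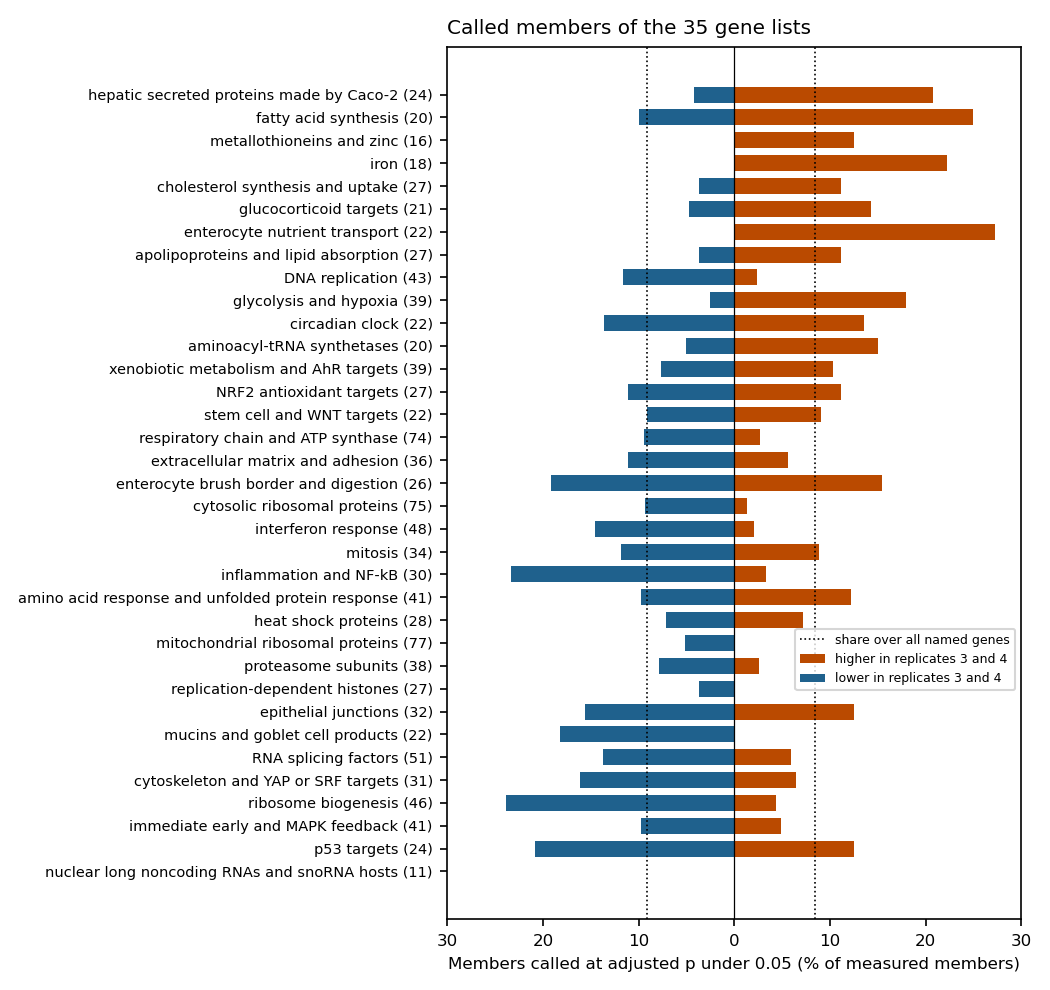
Share of the measured members of each list (number in parentheses) called at adjusted p under 0.05, to the right when higher in replicates 3 and 4 and to the left when lower; dotted lines mark the shares over all 17516 named genes, 8.41% and 9.17%. The lists are ordered by their median difference, and enterocyte nutrient transport reaches 27.3% to the right and ribosome biogenesis 23.9% to the left.

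Markers of other cell types were followed as a check. Of the 14 intestinal epithelial markers, 1 rose and 2 fell: the keratin KRT19 (0.19, adjusted p = 0.0277), the intestinal transcription factor CDX2 (-1.05, adjusted p = 0.00728) and the galectin LGALS4 (-0.48, adjusted p = 0.0198). CDX2 spread widely in the later set, from 8.61 to 10.79, beside 10.37 to 11.26 in the earlier one. Of the 10 fibroblast markers, 4 were called and all were higher (40%, beside 8.41% of all named genes), among them PDGFRA (1.07, adjusted p = 0.000421) and LUM (0.71, adjusted p = 0.00229), named after their values were seen and well above background on all 16 arrays, and COL1A2, which was not above it on any array. The summed log2 level of the fibroblast markers was 15.16 to 15.63 in the earlier set and 15.06 to 16.34 in the later one, a sum carried mostly by FBLN1, a matrix protein with medians of 15.34 and 15.04. Of the leukocyte markers 0 of 8 were called, and of the endothelial markers 1 of 7. TUBB3, a tubulin listed as neural (-0.63, adjusted p = 0.0004), and KRT10, a keratin of stratified epithelium (-0.93, adjusted p = 0.0186), fell. Their summed lists ranged from 15.05 to 15.26 and from 14.28 to 14.72 for the neural markers, and from 14.90 to 15.19 and from 13.27 to 14.59 for the squamous markers. The part of these in the lists above was not tested.

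The calls were not spread evenly over genes of different structure. Among named probes well above background on at least 8 arrays, genes were divided in 5 equal bins by the length of the gene in GRCh38.p14. In the bin of the shortest genes (up to 9.41 kb) 4.90% of probes were higher and 16.2% lower, and in the longest (from 92.5 kb) 15.3% were higher and 8.02% lower. The shares moved step by step in between. The promoter, taken as the 250 bases before and 50 after the start of the gene in RefSeq, showed a related but weaker pattern: from the bin with the lowest GC content (25.0% to 56.3%) to the highest (74.0% to 94.0%), the share called lower went from 8.07% to 17.2% and the share called higher from 11.4% to 9.12%.

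The chromosomes differed in the same sense. On the gene-dense chromosomes 16, 17, 19 and 22, 5.63% to 7.29% of probes were higher and 15.5% to 17.3% lower. On chromosomes 4, 10, 13 and 18, 15.3% to 15.8% were higher and 6.20% to 6.97% lower. The median difference was 0.08 on chromosome 4 and -0.11 on chromosome 22, each small beside the median absolute difference on them (0.22 and 0.23). The 20 probes of the mitochondrial genome had a median of 0.37. Gene length also differed between the lists: the median was 45.7 kb for nutrient transport and 44.7 kb for fatty acid synthesis, and 6.15 kb for inflammation and NF-kB and 7.17 kb for immediate early genes, but 15.6 kb for the plasma proteins and 66.9 kb for matrix and adhesion. Its part in the list results was not tested. Calls were rarer at low signal, with 0.61% higher and 0.146% lower in the dimmest of 5 equal bins of all probes.

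**Figure D4:**
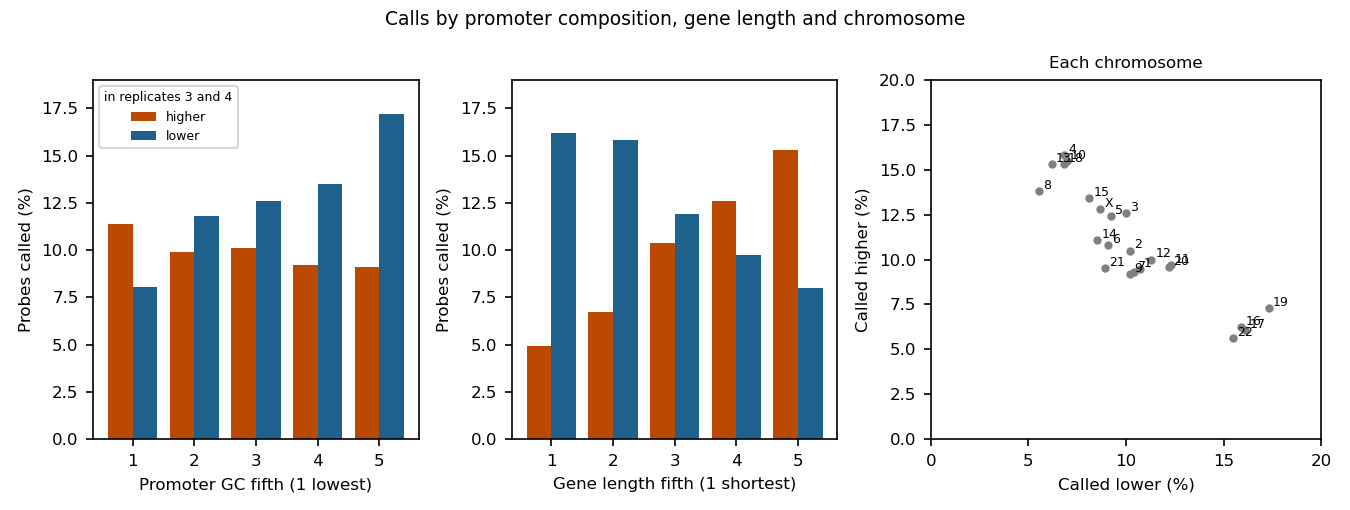
Share of probes called higher and lower in replicates 3 and 4 (vertical, %) by bin of promoter GC content and of gene length (5 bins each), and for each chromosome the share called higher (vertical) against the share called lower (horizontal). From the shortest to the longest genes the share called higher goes from 4.90% to 15.3%, and chromosomes 16, 17, 19 and 22 lie apart at the lower right.

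Promoters of contrasting composition are shown for 2 of the named genes, ABCB1, which rose, and CCSAP, which fell. They do not stand for the direction: POFUT1, which rose, had a GC content of 80.7%, and JMJD1C, which fell, 45%. Both lie on the minus strand and are given 5′ to 3′ from RefSeq (GRCh38.p14), at chr7:87713246-87713545 and chr1:229342998-229343297. Capitals mark GC boxes (GGGCGG or, on the other strand, CCGCCC), the sites bound by SP1-type factors.
ABCB1: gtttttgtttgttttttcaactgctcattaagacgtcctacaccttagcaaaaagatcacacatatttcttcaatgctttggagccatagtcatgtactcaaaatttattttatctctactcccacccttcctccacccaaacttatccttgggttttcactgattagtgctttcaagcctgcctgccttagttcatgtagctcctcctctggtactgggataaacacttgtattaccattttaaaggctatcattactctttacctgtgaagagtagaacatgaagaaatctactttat
CCSAP: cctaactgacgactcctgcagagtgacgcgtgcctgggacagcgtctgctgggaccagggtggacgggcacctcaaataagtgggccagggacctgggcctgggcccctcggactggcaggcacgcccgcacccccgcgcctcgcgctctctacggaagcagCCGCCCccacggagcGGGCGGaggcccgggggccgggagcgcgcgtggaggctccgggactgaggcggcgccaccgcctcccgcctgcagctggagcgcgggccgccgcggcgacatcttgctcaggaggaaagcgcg
The ABCB1 window had a GC content of 37.7% and 0 GC boxes, and the CCSAP window 74.3% and 2. Each window covers 1 start of its gene, and promoters at other starts were not looked at. The windows therefore do not show whether ABCB1 or CCSAP has GC boxes elsewhere. A GC box was found in 44.6% of all 27305 promoters in the table and in 61.3% of the 13811 that belong to measured genes. The share was 66.0% for genes called higher and 73.1% for genes called lower, so both were above that of the measured genes. Called genes also had higher signals than uncalled ones, as given above, and the part of signal in these shares was not tested.

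The set difference was called as dependent on the agent for few probes. The interaction of set and agent was called for 34 of 40975 probes (0.083%) by limma's F test. An unadjusted p under 0.05 was found for 1446 probes (3.53%), a share below that expected by chance. Each agent had 2 arrays in each set, so the test could miss a dependence. For 30 of the 34, the array farthest from the median was MED-CTL replicate 1 or 2. YWHAZ, a 14-3-3 adaptor, was higher by 3.48 in MED-CTL in the probe concerned and differed by -0.05 to 0.35 in the other agents (adjusted p = 0.00146 for the interaction). Named members of this group included the pseudogenes FTH1P12 (2.82 in MED-CTL and 0.05 to 0.19 elsewhere, adjusted p = 2.86e-05) and RPLP0P2 (2.04 and 0.15 to 0.28, adjusted p = 0.00207). FTH1P12 was at 11.53 in MED-CTL replicate 2 and at 11.58 to 14.73 on the other 15 arrays. NUB1, a regulator of NEDD8 conjugates, had the same pattern (2.82 and 0.35 to 0.55). An unnamed probe went the other way, at -4.05 in MED-CTL and -0.81 to -0.55 elsewhere. These probes were chosen after their values were seen.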

How the data were processed

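Total RNA of Caco-2 cells was measured on 16 one-colour Agilent 4x44K arrays. The authors deposited log2 values, made by quantile normalisation of the median foreground without background correction, and the scanner files, whose intensity columns reproduced them within 5e-09. Of 45015 spots, 1639 controls and 1774 spot values marked as outliers were left out, and the spots of a probe were averaged (41000 probes, 23434 named by accession, 3360 by the name in the files and 14206 unnamed). For probes with values on at least 6 of 8 arrays per set, limma 3.58.1 (R 4.3.3) was fitted with agent as factor and experiment as random block (consensus correlation 0.183), and p-values were adjusted by the Benjamini-Hochberg method. On simulated data this correlation came out low, so the p-values are too small, by an amount not measured for these arrays. The fit takes the same correlation for all experiments. The 2 experiments of the earlier set differed by a median of 0.07, and those of the later set by 0.27. The fit had 11 residual degrees of freedom, beside 2 for the experiment means, where limma called 0 probes. A correlation of 0.251 from mean squares gave 4975 calls. The number of experiments, 2 per set, limits the precision of the set difference.

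Named were the 12 genes per direction with the largest differences without overlap, up to 4 bounded genes, and 3 members per list by p in the direction with more calls; other genes are said to be named after their values were seen. Y-linked genes and XIST were left out, and some genes that the rule named are not reported here. The comparison and the lists were chosen with earlier results of these data known. Annotation columns of the scanner files were used for names, and the alternatives are given at the end. Array weights, other blocks, scalings, filters and left-out arrays were tried.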

Additional observations from a re-analysis of the deposited data

Results flagged for a closer look

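Of the named genes, 13 had 1 array far from the other 7 of its set in log2 intensity by Dixon's test, which flags about 1 in 20 groups by chance. The test was run for up to 130 named probes in each set, so a list of this length is near what chance alone gives. LGI2 was at 10.28 in PT-G replicate 4, beside 9.81 to 9.99 in the rest of its set. ITSN1 was at 10.33 in PT-G replicate 2, beside 10.72 to 11.04 in the rest of its set. UGT1A6 was at 11.93 in PT-G replicate 2, beside 11.58 to 11.73 in the rest of its set. U2AF2 was at 9.14 in MED-CTL replicate 2, beside 9.49 to 9.66 in the rest of its set. SF3A3 was at 13.37 in MED-CTL replicate 3, beside 12.88 to 13.07 in the rest of its set. PSAT1 was at 12.90 in PT replicate 2, beside 13.07 to 13.18 in the rest of its set. PSAT1 was at 13.72 in PT-G replicate 4, beside 13.39 to 13.54 in the rest of its set. ALDH1L2 was at 8.93 in PT replicate 3, beside 9.32 to 9.65 in the rest of its set. RORA was at 8.74 in PT-G replicate 2, beside 9.01 to 9.25 in the rest of its set. ANGPTL4 was at 7.10 in p31-43 replicate 1, beside 7.32 to 7.47 in the rest of its set. ETV4 was at 10.54 in MED-CTL replicate 2, beside 10.88 to 11.11 in the rest of its set. HLA-B was at 14.53 in p31-43 replicate 1, beside 14.80 to 15.01 in the rest of its set. PROM1 was at 12 in MED-CTL replicate 2, beside 12.30 to 12.54 in the rest of its set. CD44 was at 11.93 in PT replicate 2, beside 12.09 to 12.22 in the rest of its set.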

How the results depend on the processing

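The number of called probes (6305) stayed within 1.5 times under 11 alternatives of normalisation, filter, spots, variance and block. It fell to 3225 with the slide as block, 3971 with processed signals scaled to the 75th percentile and 2994 at adjusted p under 0.01, and rose to 10593 without a block. The means of 2 against 2 experiments gave 0 calls with limma (8085 at unadjusted p under 0.05), and each agent alone gave 0 (MED-CTL 3793, p31-43 5220, PT 8872 and PT-G 6274 at unadjusted p under 0.05). Leaving out 1 experiment or array gave 609 to 19791: 609 without experiment 1, 610 without 2, 19021 without 3 and 19791 without 4, where 1 set holds 1 experiment, and 4054 without PT replicate 3, while the other 15 arrays left the count within 1.5 times. Chosen after seeing the data, omitting the slide scanned last gave 3705 calls and omitting MED-CTL replicates 1 and 2 and PT replicate 3 gave 1624, of which 1606 were among the 6305. The cause was not tested. All 130 named probes kept their direction in every alternative that measured them. This is in part fixed, since the probes were chosen among the calls and the alternatives use the same arrays. With the slide as block 92 stayed called, and without the 3 arrays 51. No paired analysis was possible because the sets share no replicate numbers. Signal over background limits the dimmest of 5 equal bins of probes, where 0.61% were called higher and 0.146% lower.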
